A study of Homo sapiens with 12 samples.

Results

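The genes described here were 46 lysosome and autophagy genes, listed by name for their known roles, out of 60107 gene identifiers in the table. Each of the 46 matched 1 Ensembl identifier. They were grouped by role into 3 regulators of the MiT-TFE family, 23 lysosomal genes and 20 autophagy genes.

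Messenger RNA was counted by 3′ RNA-sequencing in cells of 2 human glioblastoma lines labelled U251P and U251T, to compare the drug carmofur with vehicle in each line. Carmofur is a fluorouracil derivative that inhibits acid ceramidase, an enzyme of the lysosome. The 4 groups were U251P with vehicle, U251P with carmofur, U251T with vehicle and U251T with carmofur, with 3 libraries in each. All 12 libraries came from cells kept for 16 h without serum and then returned to full medium with vehicle or carmofur for 24 h, and the study's methods place the drug in the starvation period as well. Because this kit primes at the poly(A) tail and counts transcript ends, levels do not scale with transcript length, and levels are given as counts scaled to library size (CPM) without a length correction. The study's methods say that experiments were done in biological replicates with technical replicates, and the labels do not say which kind the 3 libraries of a group are, so that p-values measure the spread between libraries.

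Lysosomes digest proteins, lipids and sugars with acid hydrolases, in a lumen that a proton pump (the V-ATPase) keeps acidic. In macroautophagy a membrane closes around cytoplasm, which needs an initiating kinase complex, a lipid kinase complex, and the conjugation of ATG8 proteins to lipid, and receptors such as p62 link cargo to those ATG8 proteins before fusion with a lysosome. Many lysosomal genes carry a short promoter element read by TFEB, TFE3 and MITF, transcription factors that respond to nutrient and lysosomal stress.

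The promoter sequences were searched for that element because it is what the regulators and the lysosomal genes have in common. RefSeq promoter windows of 300 bases (250 before to 50 after the start; build GRCh38.p14) were found for 38 of the 46 genes, 59 windows in all. The letters CACGTG, which read the same on both strands, were in 7 windows (11.9%) against 7.26% of all 35116 windows in the reference. The longer TCACGTGA, which contains CACGTG and also reads the same on both strands, was in 5 windows (8.47%) against 0.980% of all windows. The 7 windows belonged to 7 lysosomal genes, and 0 of the windows of the autophagy genes or of the regulators held CACGTG. LAMP1 had 6 matches, CTSA, GAA and MCOLN1 had 2 each, and CD63, CTSD and ATP6V0D1 had 1 each. The stretches of 30 bases around 1 match of each gene are given here, 5′ to 3′ along the gene, with CACGTG in capitals; a match describes the letters only.
LAMP1: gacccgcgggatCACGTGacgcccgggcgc
MCOLN1: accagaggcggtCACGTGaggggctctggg
CD63: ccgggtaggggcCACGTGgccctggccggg
CTSA: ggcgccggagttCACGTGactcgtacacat
CTSD: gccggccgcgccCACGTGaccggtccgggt
GAA: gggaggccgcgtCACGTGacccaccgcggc
ATP6V0D1: cccccttatggtCACGTGaggcgcttgcgc
These lie at chr13:113297199-113297228 (plus strand), chr19:7522571-7522600 (plus), chr12:55729172-55729201 (minus), chr20:45891298-45891327 (plus), chr11:1763957-1763986 (minus), chr17:80101493-80101522 (plus) and chr16:67481199-67481228 (minus) in the same order. Relative to the start, the first base of the capitals was at -28 in LAMP1, -41 in MCOLN1, -180 in CD63, -25 in CTSA, -47 in CTSD, -76 in GAA and -59 in ATP6V0D1.

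The 6 U251T libraries stood apart from the 6 U251P libraries in ways that reach beyond the genes of interest. Total counts were 3295045 to 6350873 in U251P and 383633 to 2817379 in U251T, where the carmofur libraries held 969763, 1078340 and 383633 counts and the vehicle libraries 1300727, 2817379 and 566061. Pseudogenes took 10.8% to 12.4% of the counts in U251T and 0.272% to 0.307% in U251P, and genes of the mitochondrial genome took 0.355% to 0.881% against 19.5% to 26.2%. Of 12 genes that nearly all cells use, a panel chosen after the values were seen, all had counts in every U251P library, whereas B2M had 1 to 7 counts and PPIA 0 to 49 in the U251T libraries. The cause of these differences was not tested, and it cannot be told apart from the line. The carmofur comparison in U251P does not rest on the U251T libraries, and it is given from the U251P libraries alone.

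Marker genes were checked against the label of glioblastoma. Of 10 glioblastoma cell markers, VIM was the most abundant in every library, and NES and SOX2 had 1512 to 2636 and 322 to 960 counts in U251P but at most 2 and 1 in U251T. EGFR had 242 to 539 counts in U251P and 3 to 7 in U251T, GFAP had 0 or 1 in U251P and 8 to 154 in U251T, and S100B was at 0 in all 6 U251T libraries. Several markers of the label were thus near 0 in U251T, and that name is used here only as the label. Summed over the 10 genes, the level was 4135 to 5159 CPM in U251P. In U251T it was 14180, 11710 and 14100 CPM with vehicle and 9886, 7823 and 8607 CPM with carmofur. The 6 fibroblast markers summed to 18.8 to 23.5 CPM in U251P. In U251T, 5 of the 6 had a count in every library, led by COL1A1, with LUM at 0, and their sum was 1957, 2119 and 2270 CPM with vehicle and 2606, 2799 and 2596 CPM with carmofur. With carmofur in U251T the sum of the 10 genes was thus lower and the fibroblast sum higher, without overlap between the groups. In each U251T library 3 or 4 of the 10 genes were at 0 and VIM led, so that their sum does not stand for the whole panel. The part of both sums in the results was not tested.

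Markers of 5 other cell types were also read. The 10 microglia and macrophage markers summed to 0.304 to 2.05 CPM in U251P and 0 to 5.38 CPM in U251T. AIF1, C1QA, C1QB, C1QC, TYROBP and ITGAM were at 0 in all libraries, and CD14, CSF1R or PTPRC was the most abundant where any had a count. The 5 endothelial markers summed to at most 0.987 CPM, with VWF and CLDN5 at 0 throughout and KDR the most abundant in U251P. In U251T only vehicle replicate 2 and carmofur replicate 2 held a count of any of the 5, in PECAM1. The 4 oligodendrocyte markers summed to at most 4.88 CPM, nearly all from MBP, with MOG and OLIG2 at 0 throughout. Neuron markers summed to 14.95 to 28.0 CPM in U251P, led by SYT1, and to 2.84 to 33.0 CPM in U251T, where RBFOX3 was the most abundant in 4 of 6 libraries. Within U251T the neuron sum was 16.9, 2.84 and 7.07 CPM with vehicle and 33.0, 16.7 and 26.1 CPM with carmofur, on a few counts per gene. The 5 epithelial markers summed to 161.6 to 232.2 CPM in U251P, led by KRT18, and to 5.32 to 17.7 CPM in U251T, with CDH1 at 0 in U251P and EPCAM at 0 in U251T.

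In U251P, none of the lysosome and autophagy genes passed the test: 0 of the 45 tested had an adjusted p under 0.05 in edgeR, as did 0 of all 11426 genes tested (0%). At an unadjusted p under 0.05 there were 4 of 45 genes, and 402 of 11426 over the table, while DESeq2 also called 0 and had 1 at an unadjusted p under 0.05. The median log2 fold change of the 45 genes was -0.02, beside -0.00 for all genes tested, and 41 of the 45 fold changes were smaller than 0.5 in size. Values of the carmofur and vehicle groups did not overlap for 6 of the 45 genes, 3 higher and 3 lower, where 8.33% of all genes tested had groups that did not overlap. CTSK, with 2 to 13 counts per library, was the gene not tested.

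In U251T, 26 of the 46 genes had enough counts to be tested, and 8 rose with carmofur: CD63, CTSL, ATP6V1H, ATG5, ATG7, GABARAP, GABARAPL2 and RETREG1. None fell. Of all 7204 genes tested 17.1% were called, 8.88% higher (640 genes) and the rest lower, so that calls were frequent in this line in both directions. The median log2 fold change of the 26 genes was 0.51, beside 0.01 for all genes tested, and 22 of the 26 estimates were positive. Groups did not overlap for 10 of the 26 genes, all higher with carmofur, where 32.9% of all genes tested did not overlap and 16.2% were higher without overlap. The 26 are not all members: 20 were too low to test, and ATG7, ATP6V0D1, CTSD and CTSL reached the minimum of 9.77 CPM in all 3 carmofur libraries but not in all 3 vehicle libraries, so that a higher level with carmofur helped them into the test. GABARAPL1 reached it in all 3 vehicle libraries only, and over all 7204 genes 483 reached it in all libraries of the carmofur group only and 498 in those of the vehicle group only. In bulk RNA, fewer cells that express a gene and less RNA per cell cannot be told apart.

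The number of called genes in U251T depended on single libraries. Without carmofur replicate 3, the shallowest library, 3 genes were called (11.6% of all genes tested in that fit), and without vehicle replicate 2, the deepest, 4 were called (13.4% of all). Leaving out carmofur replicate 1 or vehicle replicate 1 left 5 in each case, with 11.1% and 12.8% of all genes called, so that calls became fewer over the table as well. All 8 called genes had their lowest value in vehicle replicate 2, as did 16 of the 26 tested (61.5%), 60.3% of the 640 genes called higher over the table and 20.9% of all 7204 genes tested. With every library thinned to 383633 counts, an alternative added after the values were seen, 4 of 19 tested genes were called, all higher, with 15.4% of all 5152 genes tested called in either direction. CD63, ATP6V1H and RETREG1 were called in all 15 alternatives.

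**Figure D1:**
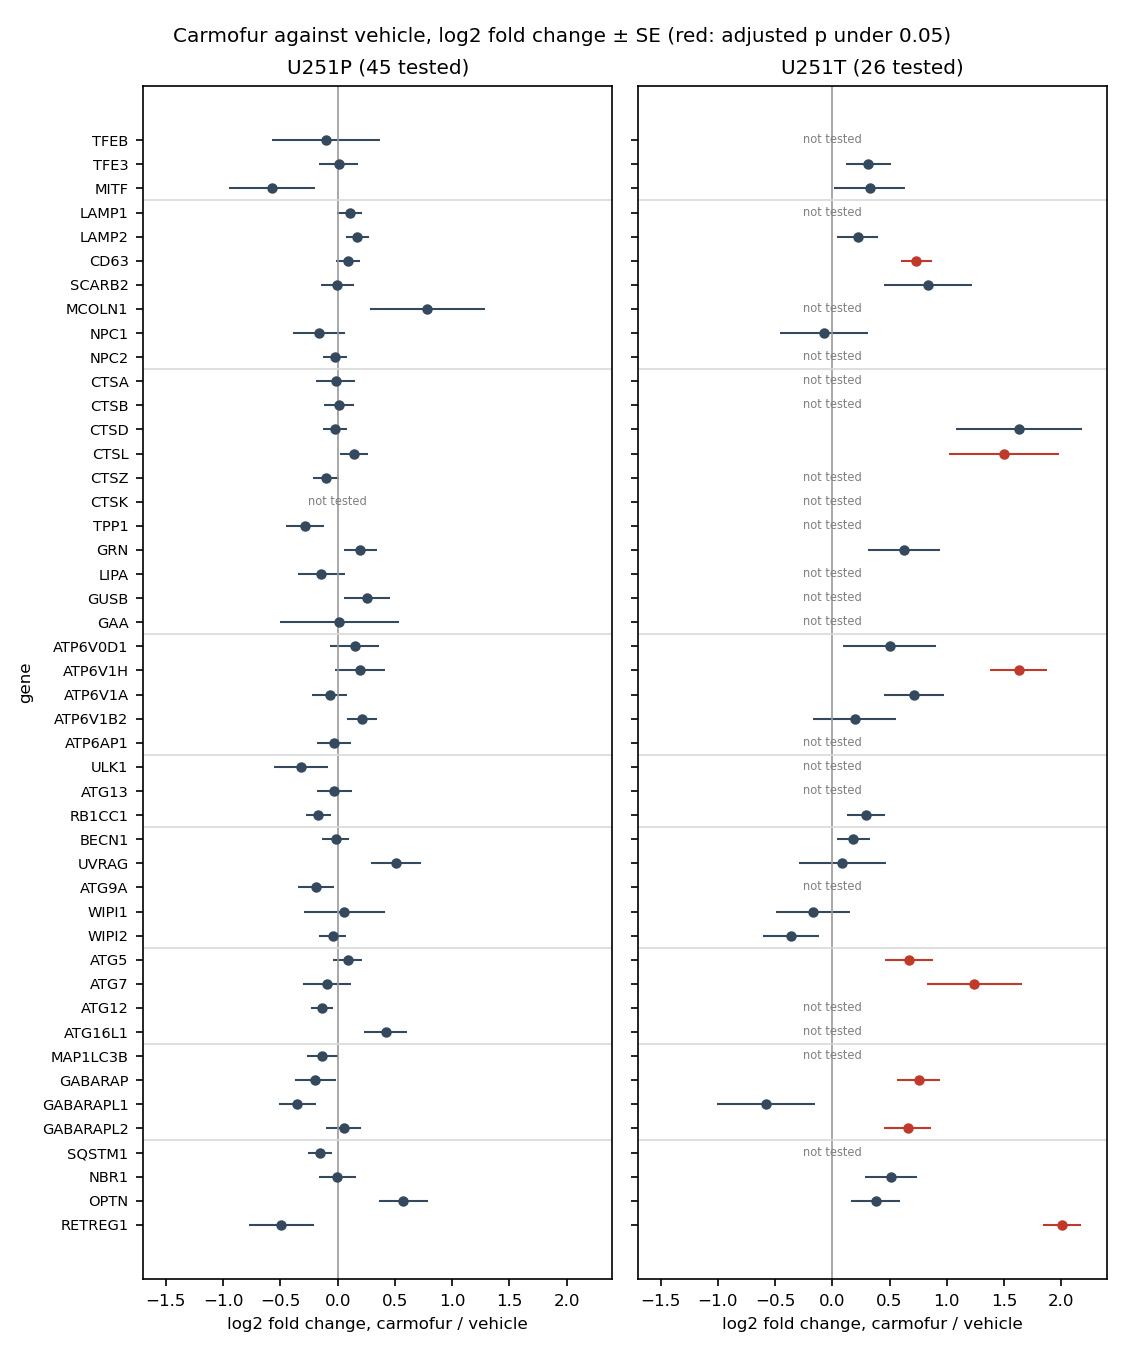
Log2 fold change of carmofur over vehicle (x axis) for each of the 46 genes (y axis, ordered by role, grey lines between roles) in U251P (left) and U251T (right). Bars are 1 standard error, derived from the F statistic of the edgeR test, and red marks an adjusted p under 0.05. The 45 genes tested in U251P hold no red point, and the 8 red points in U251T all lie to the right of 0.

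The difference between the lines was tested as the interaction of line and treatment over all 12 libraries. The carmofur effect was higher in U251T than in U251P for 4 of 44 genes tested, RETREG1, ATP6V1H, CTSL and GABARAP. All 4 were among the 26 genes that could also be tested in U251T alone, and for the other 18 the counts there were too low for the interaction to show an absence of difference. No gene was called in the lower direction. Over the table the interaction was called for 4.28% of 13070 genes, and for 1.80% in the direction of a higher effect in U251T. For the other 4 genes called in U251T (CD63, ATG5, ATG7 and GABARAPL2) the adjusted p of the interaction was 0.0953 (ATG7) to 0.331 (GABARAPL2), and a difference between the lines was not shown. Without U251P carmofur replicate 1, U251P carmofur replicate 2, U251P vehicle replicate 2, U251T carmofur replicate 1, U251T carmofur replicate 3 or U251T vehicle replicate 2, the number of called genes was 2 in each case, and the share called over all genes was 2.69% to 3.24%.

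Summed over the 46 genes, the level was 2723, 2045 and 2989 CPM in the U251T vehicle libraries and 3892, 3636 and 4423 CPM in the carmofur libraries. In U251P the sum was 3213 to 3345 CPM with vehicle and 2970 to 3374 CPM with carmofur. CD63 made up 28.0% to 32.5% of the sum in U251T, and SQSTM1 made up 16.9% to 21.8% in U251P. The 12 genes that nearly all cells use also had a higher sum with carmofur in U251T, 2621 to 2750 CPM against 2229 to 2344 CPM with vehicle, and the part of such a general shift in the results was not tested.

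**Figure D2:**
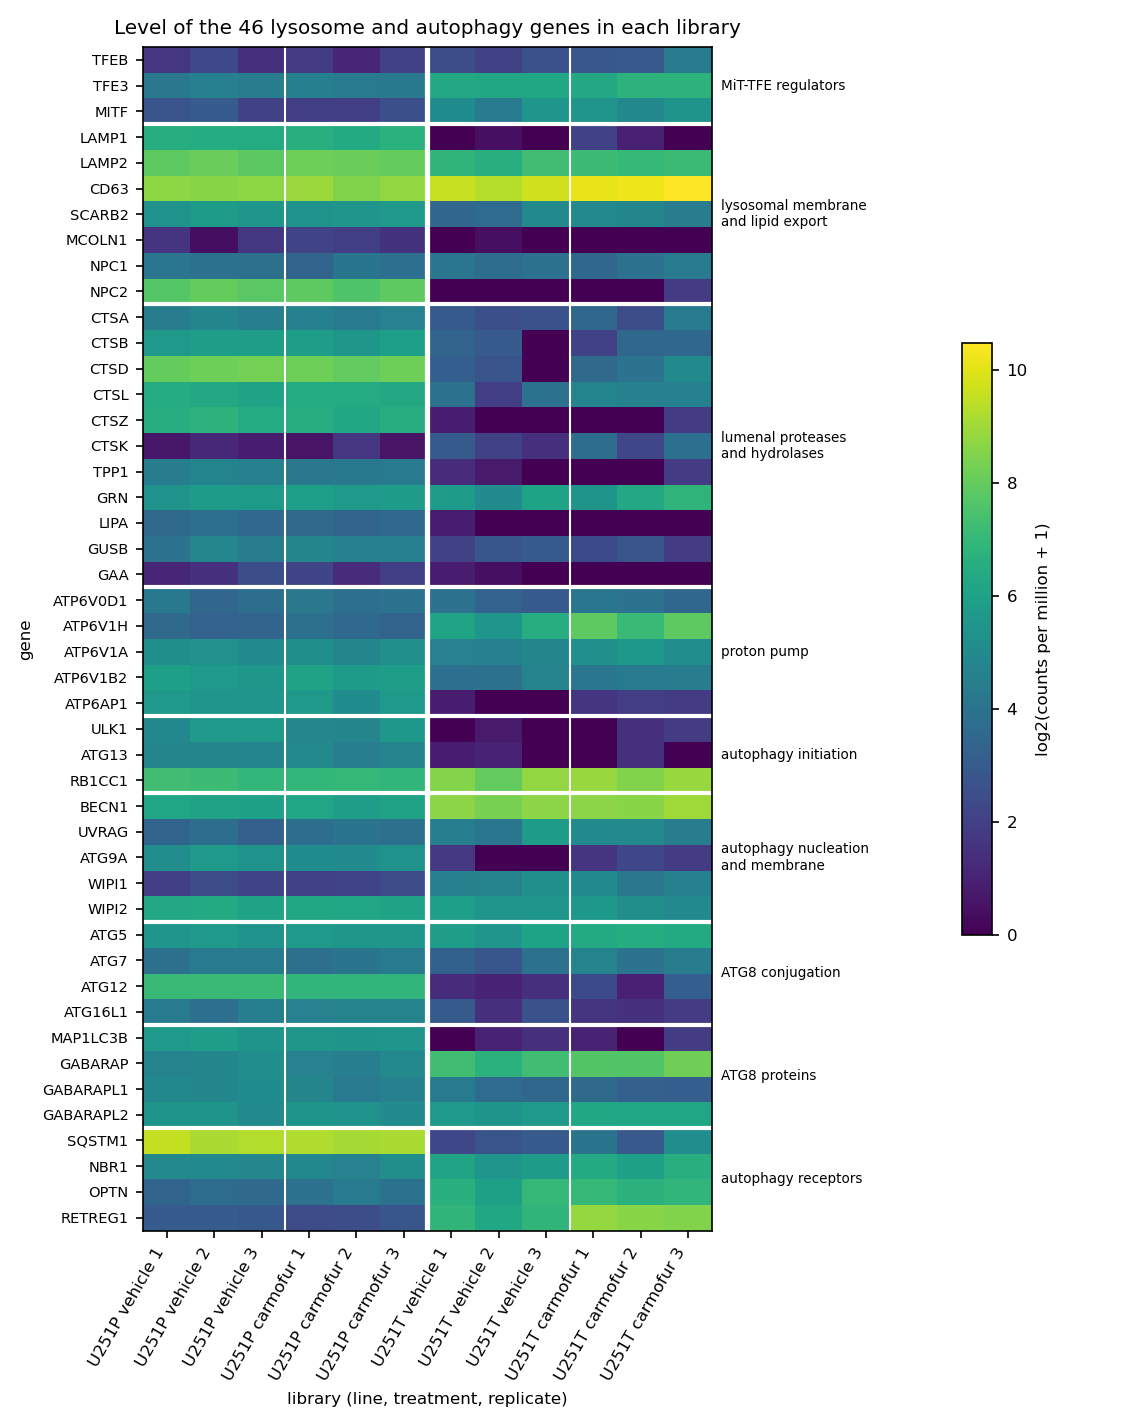
Level of the 46 genes (rows, ordered by role) in the 12 libraries (columns), as log2 of CPM plus 1, with white lines between roles and groups. The U251T libraries show LAMP1, NPC2, CTSZ, LIPA and ULK1 at or near 0 and CD63 as the brightest row, and RETREG1 and ATP6V1H are brighter in the 3 U251T carmofur columns than in the 3 vehicle columns.

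The regulators TFEB, TFE3 and MITF, basic helix-loop-helix leucine zipper factors that switch on lysosomal genes, were not called in either line. TFE3 was the most abundant of the 3. In U251P it had 16.9, 22.0 and 20.4 CPM with vehicle and 21.3, 19.2 and 18.5 CPM with carmofur (log2 fold change 0.01 ± 0.17 SE). In U251T it had 79.7, 80.0 and 77.4 CPM with vehicle and 78.6, 112.2 and 108.1 CPM with carmofur (0.32 ± 0.19 SE), and the groups overlapped in both lines. TFEB was close to the limit of detection, with 2.13, 3.86 and 1.75 CPM in U251P with vehicle and 2.62, 1.22 and 3.21 CPM with carmofur (7 to 17 counts), which overlapped. In U251T it had 4.65, 3.40 and 5.28 CPM with vehicle and 6.21, 6.77 and 18.5 CPM with carmofur, without overlap but on 3 to 9 counts, too few to test. MITF, the factor best known from pigment cells, had 5.43, 7.13 and 3.31 CPM in U251P with vehicle and 2.78, 2.97 and 4.93 CPM with carmofur, groups that overlapped. Its values in U251T were 33.3, 20.8 and 44.0 CPM with vehicle and 43.5, 30.0 and 42.2 CPM with carmofur, which overlapped as well.

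Among genes of the lysosomal membrane and of lipid export, CD63 rose in U251T. CD63 (ENSG00000135404, chr12:55725323-55729707, protein-coding), a tetraspanin of late endosomes and exosomes, had 785, 664 and 834 CPM with vehicle and 1119, 1234 and 1437 CPM with carmofur. All 3 carmofur libraries lay above all 3 vehicle libraries, and the means were 761 ± 87.7 and 1263 ± 161.1 CPM (SD, n = 3). The log2 fold change was 0.73 ± 0.14 SE (edgeR, adjusted p = 0.000977), and without 1 library at a time it ranged from 0.62 to 0.81. In U251P the values were 409.5, 377.7 and 421.3 CPM with vehicle and 465.5, 372.7 and 451.6 CPM with carmofur, which overlapped. Of its 8 promoter windows, 1 held CACGTG and 0 held TCACGTGA. The windows of the other called genes CTSL, ATG5, ATG7, GABARAP, GABARAPL2 and RETREG1 held no CACGTG, and ATP6V1H, called as well, had no window in the reference.

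The other membrane genes did not pass. LAMP2, a membrane glycoprotein of the lysosome that chaperone-mediated autophagy uses, had 232.4, 266.6 and 232.9 CPM in U251P with vehicle and 277.0, 288.0 and 258.0 CPM with carmofur (log2 fold change 0.17 ± 0.10 SE), and 0.22 ± 0.18 SE in U251T. SCARB2, the receptor that carries glucocerebrosidase to the lysosome, had a log2 fold change of 0.84 ± 0.39 SE in U251T, with vehicle counts of 13, 33 and 17 and carmofur counts of 29, 29 and 8 (edgeR, adjusted p = 0.155). The cholesterol exporter NPC1 had -0.17 ± 0.23 SE in U251P and -0.07 ± 0.38 SE in U251T. MCOLN1, a calcium channel of the lysosome, had the log2 fold change farthest from 0 of the 45 genes in U251P, 0.78 ± 0.51 SE, on 1 to 22 counts per library. LAMP1, with 288 to 616 counts per library in U251P, and NPC2, the soluble partner of NPC1, with 829 to 1475, had at most 3 and 1 counts in any U251T library, and their treatment effect was not detectable there.

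The lumenal proteases and hydrolases included the most abundant acid protease in U251P, the aspartic protease CTSD (cathepsin D). It had 247.9, 281.7 and 314.0 CPM with vehicle and 279.2, 257.3 and 293.3 CPM with carmofur in U251P (log2 fold change -0.02 ± 0.11 SE). In U251T it had 7.74, 6.04 and 0 CPM with vehicle (10, 16 and 0 counts) and 11.4, 15.5 and 31.6 CPM with carmofur (11, 16 and 12 counts), without overlap. The estimate was 1.63 ± 0.55 SE (edgeR, adjusted p = 0.0504), not called, and 5 of 13 alternatives called it (adjusted p 0.00517 to 0.212). CTSL (cathepsin L), a cysteine protease, rose in U251T from 13.9, 3.02 and 14.1 CPM with vehicle to 25.9, 24.2 and 23.7 CPM with carmofur, which did not overlap. These were 18, 8 and 8 counts against 25, 25 and 9, and the log2 fold change was 1.50 ± 0.48 SE (edgeR, adjusted p = 0.0381). The call was lost without carmofur replicate 1 (adjusted p = 0.132), carmofur replicate 2 (0.0662), carmofur replicate 3 (0.0888) or vehicle replicate 2 (0.211), and without the last the log2 fold change fell to 0.80. In U251P, CTSL had 87.6, 77.9 and 66.3 CPM with vehicle and 84.6, 90.6 and 80.7 CPM with carmofur, which overlapped. The pseudogene CTSL3P, a near copy, held 78 counts in U251T beside 93 of CTSL and 0 in U251P, so that the CTSL value in U251T is uncertain.

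None of the remaining hydrolases was called in either line. TPP1, a tripeptidyl peptidase, was among the 3 genes with the smallest unadjusted p in the lower direction in U251P, with 19.6, 25.0 and 23.3 CPM with vehicle and 17.0, 18.7 and 20.0 CPM with carmofur (log2 fold change -0.29 ± 0.17 SE), which overlapped. In U251T the vehicle counts were 2, 2 and 0 and the carmofur counts 0, 0 and 1. GRN, the precursor of the granulins, had a log2 fold change of 0.20 ± 0.14 SE in U251P and 0.62 ± 0.32 SE in U251T, where the groups overlapped. CTSA, CTSB, CTSZ, CTSK, LIPA, GUSB and GAA could not be tested in U251T. Their counts there ran up to 20 for CTSB and 17 for GUSB, whereas CTSZ and LIPA, the acid lipase of the lysosome, had at most 1. In U251P the log2 fold changes of CTSA, CTSB, CTSZ, LIPA, GUSB and GAA lay between -0.14 and 0.26.

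Of the 5 proton pump genes, ATP6V1H rose in U251T. It encodes a subunit of the cytosolic sector of the V-ATPase, and its level was 69.7, 45.7 and 91.5 CPM with vehicle and 234.9, 138.3 and 237.3 CPM with carmofur. Carmofur replicate 2 was the lowest of its group and still above the 3 vehicle libraries, and the means were 69.0 ± 22.9 and 203.5 ± 56.5 CPM (SD, n = 3). The log2 fold change was 1.63 ± 0.25 SE (edgeR, adjusted p = 0.000156), and without 1 library at a time 1.33 to 1.85. In U251P it had 11.1, 8.62 and 9.92 CPM with vehicle and 13.1, 11.4 and 9.37 CPM with carmofur, which overlapped (0.20 ± 0.22 SE). The carmofur effect was higher in U251T by 1.38 ± 0.32 SE on the log2 scale (edgeR interaction, adjusted p = 0.00671), and this call held without each of the 12 libraries.

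Of the other 4 pump genes, 3 were tested in U251T and none was called. ATP6V1A, the catalytic subunit, had 24.0, 24.9 and 26.4 CPM with vehicle and 37.3, 48.3 and 34.3 CPM with carmofur in U251T, groups that did not overlap, but with an adjusted p of 0.0735 in edgeR (log2 fold change 0.71 ± 0.26 SE). ATP6V1B2, another subunit of the cytosolic sector, had 0.19 ± 0.36 SE in U251T and 0.21 ± 0.13 SE in U251P. ATP6V0D1, of the membrane sector, had 0.50 ± 0.41 SE in U251T on 4 to 25 counts per library. The accessory protein ATP6AP1 had 148 to 317 counts in U251P and 0 to 3 in U251T, where it was too low to test.

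**Figure D3:**
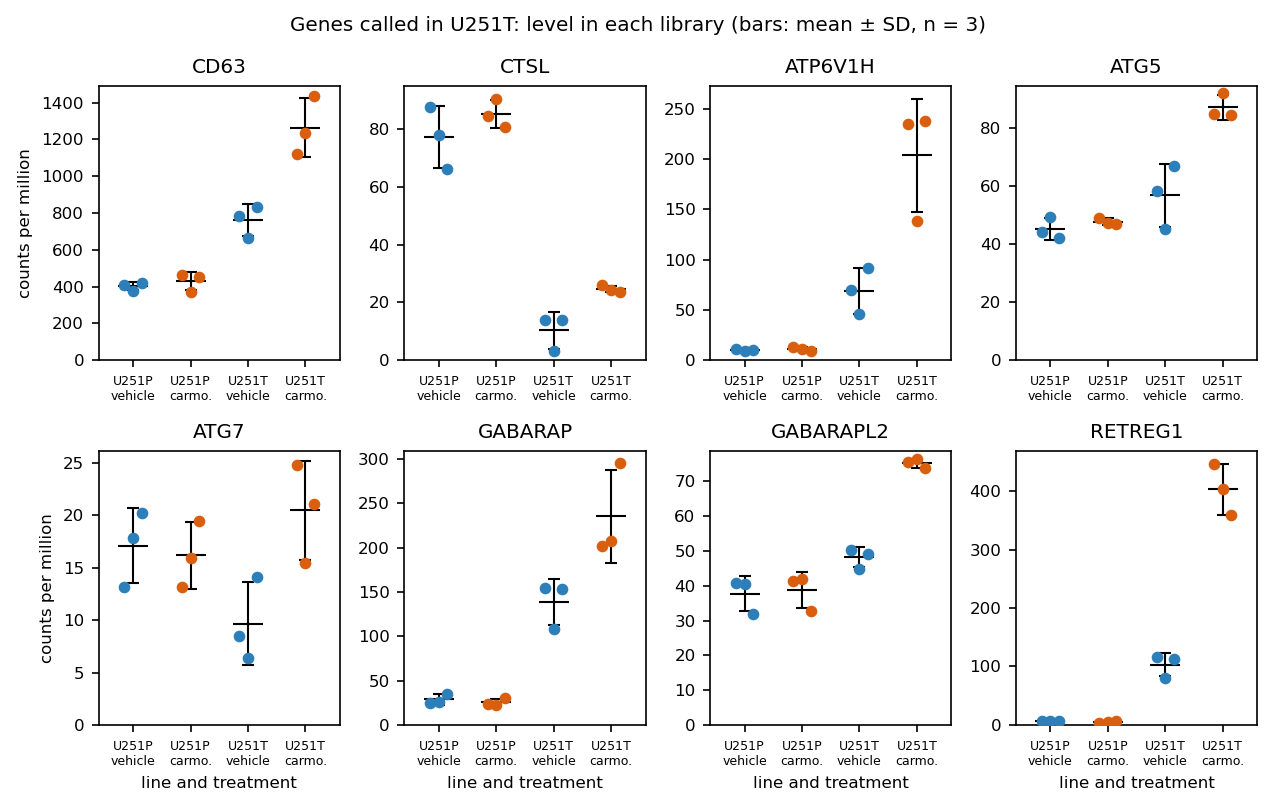
Level in CPM (y axis, from 0) of the 8 genes called in U251T, in each library of the 4 groups (x axis), with vehicle in blue, carmofur in orange and black bars for the mean and SD of 3 libraries. In each panel the 3 U251T carmofur points lie above the 3 U251T vehicle points, whereas the U251P groups overlap in all panels but RETREG1, where carmofur is lower.

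For autophagy initiation, the measured genes were ULK1, ATG13 and RB1CC1, which form the kinase complex that starts the process. RB1CC1 (FIP200), the scaffold of the complex, was the most abundant, with 151.0, 141.2 and 122.5 CPM with vehicle and 118.4, 130.6 and 119.6 CPM with carmofur in U251P, which overlapped (log2 fold change -0.17 ± 0.11 SE). In U251T it had 369.3, 264.2 and 436.3 CPM with vehicle and 461.5, 370.3 and 466.6 CPM with carmofur, which also overlapped (0.29 ± 0.17 SE). The kinase ULK1 had -0.32 ± 0.23 SE in U251P, and 0 to 2 counts per library in U251T, and the adaptor ATG13 had -0.03 ± 0.15 SE in U251P and 0 to 3 counts in U251T.

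Of the genes for nucleation and membrane supply, none was called in either line. BECN1 (beclin 1), a subunit of the lipid kinase complex, had 69.8, 63.6 and 64.9 CPM with vehicle and 71.2, 59.5 and 65.1 CPM with carmofur in U251P. In U251T its values were 405.7, 340.9 and 404.7 CPM with vehicle and 401.5, 405.1 and 508.8 CPM with carmofur (log2 fold change 0.19 ± 0.14 SE). The groups overlapped in both lines, and PSME3, which overlaps BECN1 on the opposite strand, held 3164 counts in U251P and 1702 in U251T, so that the level of BECN1 is uncertain if the counting ignored strand. UVRAG, a beclin partner, was 1 of the 3 genes with the smallest unadjusted p in the higher direction in U251P, with 9.11, 12.5 and 8.36 CPM with vehicle and 12.5, 15.7 and 13.8 CPM with carmofur. Those groups did not overlap, by a small margin, and the adjusted p was 0.999 in edgeR (0.51 ± 0.22 SE). In U251T, UVRAG had 21.7, 17.4 and 54.5 CPM with vehicle and 31.0, 30.9 and 21.1 CPM with carmofur, which overlapped. The PI3P-binding proteins WIPI1 and WIPI2 had -0.17 ± 0.32 SE and -0.36 ± 0.25 SE in U251T, and 0.06 ± 0.36 SE and -0.04 ± 0.12 SE in U251P. ATG9A, a lipid scramblase on vesicles that feed the membrane, had 161 to 212 counts in U251P (-0.19 ± 0.15 SE) and 0 to 4 in U251T.

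In the ATG8 conjugation group, ATG5 and ATG7 rose in U251T, while ATG12 and ATG16L1 were too low there to test. ATG5, which joins ATG12 in the conjugate that attaches ATG8 proteins to lipid, had 58.1, 45.3 and 66.9 CPM with vehicle and 84.9, 91.9 and 84.4 CPM with carmofur in U251T, without overlap. The estimate was 0.67 ± 0.21 SE (edgeR, adjusted p = 0.0344). The call was lost without each of the 3 carmofur libraries, vehicle replicate 1 or vehicle replicate 2 (adjusted p 0.0644 to 0.167), and it held without vehicle replicate 3 (0.0294). ATG7, the activating enzyme of the conjugation, had 8.52, 6.42 and 14.1 CPM with vehicle and 24.8, 15.5 and 21.1 CPM with carmofur, again without overlap, on 8 to 24 counts. The estimate was 1.24 ± 0.42 SE (edgeR, adjusted p = 0.0489), and the call was lost without carmofur replicate 1 (0.261), carmofur replicate 3 (0.106), vehicle replicate 1 (0.121) or vehicle replicate 2 (0.216). VGLL4 overlaps ATG7 on the opposite strand and had 331 counts in U251T beside 84 of ATG7, so that this value too is uncertain if strand was ignored.

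In U251P no gene of the conjugation group was called. ATG5 had 44.0, 49.3 and 42.0 CPM with vehicle and 49.1, 47.1 and 46.9 CPM with carmofur, and ATG7 had 13.2, 17.8 and 20.2 CPM with vehicle and 13.1, 15.9 and 19.5 CPM with carmofur, both overlapping. ATG12, the ubiquitin-like partner of ATG5, was the most abundant of the group, with 131.2, 127.8 and 137.3 CPM with vehicle and 117.1, 122.5 and 120.1 CPM with carmofur. All 3 carmofur libraries were lower, by a log2 fold change of -0.14 ± 0.10 SE that did not pass (edgeR, adjusted p = 0.999). ATG16L1, which places the conjugate on the membrane, had 19.2, 13.1 and 22.6 CPM with vehicle and 23.6, 26.0 and 24.9 CPM with carmofur, without overlap (0.42 ± 0.19 SE, edgeR adjusted p = 0.999). In U251T, ATG12 had 1 to 4 counts and ATG16L1 1 to 9 counts per library.

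Of the ATG8 proteins themselves, GABARAP and GABARAPL2 rose in U251T. GABARAP (ENSG00000170296, chr17:7240014-7242770, protein-coding) had 154.1, 108.7 and 153.1 CPM with vehicle and 201.8, 207.9 and 295.3 CPM with carmofur, with means of 138.6 ± 25.9 and 235.0 ± 52.3 CPM (SD, n = 3). The groups did not overlap, and the log2 fold change was 0.76 ± 0.19 SE (edgeR, adjusted p = 0.00835), which lost its call without carmofur replicate 3 (0.0598). GABARAPL2 had 50.3, 44.9 and 49.3 CPM with vehicle and 75.5, 76.4 and 73.8 CPM with carmofur, groups that lay apart. Its log2 fold change was 0.66 ± 0.20 SE (edgeR, adjusted p = 0.0335), and the call was lost without each of the 6 libraries in turn (adjusted p 0.0594 to 0.109).

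GABARAP differed between the lines in its response. In U251P it had 24.6, 26.5 and 35.4 CPM with vehicle and 23.6, 22.3 and 30.3 CPM with carmofur, and the interaction was 0.89 ± 0.26 SE (edgeR, adjusted p = 0.0408). That call was lost without U251P carmofur replicate 1 (0.121) or 2 (0.134), U251P vehicle replicate 2 (0.0607) or 3 (0.210), U251T carmofur replicate 1 (0.0520) or 3 (0.118), or U251T vehicle replicate 2 (0.127). GABARAPL2 had 40.7, 40.4 and 31.9 CPM with vehicle and 41.5, 41.9 and 32.8 CPM with carmofur in U251P, which overlapped. GABARAPL1 was in the lower direction in U251P, with 28.3, 26.5 and 34.4 CPM with vehicle and 25.8, 20.3 and 24.2 CPM with carmofur (-0.35 ± 0.16 SE, edgeR adjusted p = 0.999), without overlap. In U251T it had 19.4, 12.5 and 10.6 CPM with vehicle and 11.4, 8.70 and 7.91 CPM with carmofur, which overlapped (-0.58 ± 0.42 SE). MAP1LC3B (LC3B), the ATG8 protein most used as a marker of autophagosomes, had 181 to 291 counts per library in U251P (-0.13 ± 0.13 SE) and 0 to 3 in U251T, where no effect could be measured.

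Among the autophagy receptors, RETREG1 had the largest log2 fold change with carmofur of the 46 genes, among those tested. RETREG1 (FAM134B; ENSG00000154153, chr5:16473038-16617058, protein-coding), a receptor for autophagy of the endoplasmic reticulum, had 116.1, 80.8 and 112.6 CPM in U251T with vehicle and 446.0, 404.1 and 358.5 CPM with carmofur. The means were 103.2 ± 19.5 and 402.9 ± 43.7 CPM (SD, n = 3), and the lowest carmofur library stood well above the highest vehicle library. The log2 fold change was 2.01 ± 0.17 SE (edgeR, adjusted p = 2.47e-07), and 1.81 to 2.11 without 1 library at a time. In U251P the gene was rare, with 7.17, 7.13 and 6.61 CPM with vehicle and 4.17, 4.71 and 6.17 CPM with carmofur, 24 to 37 counts per library. These groups did not overlap either, in the opposite direction, but the log2 fold change of -0.49 ± 0.28 SE did not pass (edgeR, adjusted p = 0.999). The difference between the lines was 2.45 ± 0.31 SE (edgeR interaction, adjusted p = 1.1e-06), and it held without each of the 12 libraries.

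The other receptors were not called. SQSTM1 (p62), the most abundant of the 46 genes in U251P, had 712.6, 553.6 and 630.7 CPM with vehicle and 581.7, 552.7 and 571.0 CPM with carmofur, which overlapped (log2 fold change -0.15 ± 0.10 SE). In U251T it had 3.87, 6.04 and 7.04 CPM with vehicle (5, 16 and 4 counts) and 15.5, 6.77 and 34.3 CPM with carmofur (15, 7 and 13 counts), which overlapped and were too few to test. The interaction was 1.51 ± 0.46 SE (edgeR, adjusted p = 0.0544), not called. MGAT4B overlaps SQSTM1 on the opposite strand with 3313 counts in U251P and 839 in U251T. OPTN (optineurin), a receptor in mitophagy, had the smallest unadjusted p of the 45 genes in U251P, with 9.30, 11.9 and 11.5 CPM with vehicle and 13.6, 20.1 and 14.6 CPM with carmofur (0.57 ± 0.22 SE, edgeR adjusted p = 0.999), without overlap. In U251T, OPTN had 100.6, 65.7 and 123.2 CPM with vehicle and 130.4, 111.2 and 118.6 CPM with carmofur, which overlapped (0.38 ± 0.22 SE). NBR1, a receptor related to p62, had -0.00 ± 0.16 SE in U251P and 0.51 ± 0.23 SE in U251T (edgeR, adjusted p = 0.139).

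CTSL was the remaining gene whose response differed between the lines, by 1.40 ± 0.42 SE (edgeR interaction, adjusted p = 0.0454). This call held only without U251P vehicle replicate 3, U251T vehicle replicate 1 or U251T vehicle replicate 3, and was lost without each of the other 9 libraries, with the interaction at 0.64 and an adjusted p of 0.508 without U251T vehicle replicate 2. The adjusted p was 0.0605 to 0.151 without each of the remaining 8.

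Between the lines in vehicle, 37 of 43 genes tested were called, 12 higher in U251T and 25 lower. Of all 12047 genes tested 86.9% were called, 4736 higher and 5738 lower, so that most genes of any kind differed between the lines. With only genes of at least 10 counts in every library, 16 of 20 were called, 9 of them higher. In that fit 77.5% of all 4823 genes tested were called, 1863 of them higher. The median log2 difference of the listed genes tested was 0.42 in place of -1.13, and that of all genes tested was 0.01 in place of -0.33. Higher in U251T were RETREG1, OPTN, WIPI1, ATP6V1H, MITF, BECN1, GABARAP, TFE3, UVRAG, RB1CC1, NBR1 and CD63. Of the 38 genes with at least 10 CPM on average in U251P vehicle, 7 had at most 3 counts over the 3 U251T vehicle libraries: LAMP1, NPC2, CTSZ, LIPA, ATP6AP1, ULK1 and ATG9A. By the same rule, chosen after the values were seen, 16.7% of 8143 genes in the table were near 0 in U251T, close to the 18.4% of the 38.

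**Figure D4:**
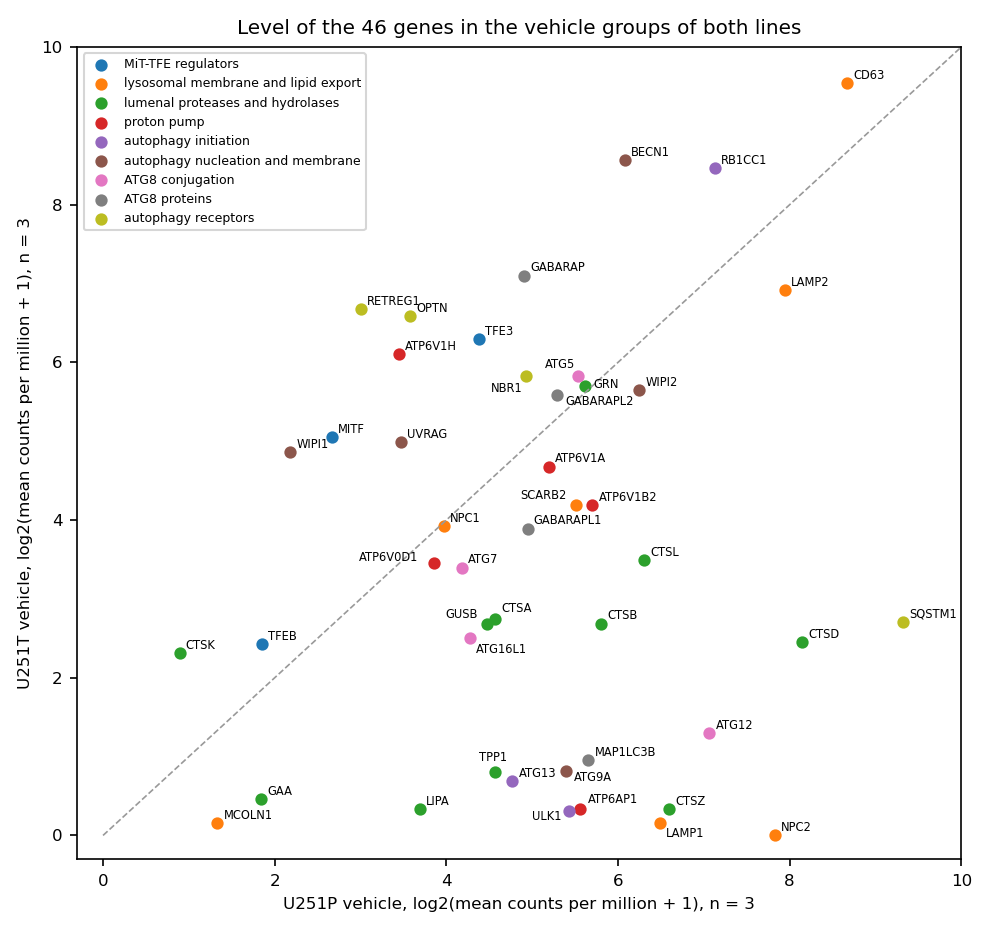
Mean level of the 46 genes in the vehicle groups, as log2 of CPM plus 1, in U251P (x axis) and U251T (y axis), with 3 libraries a group, colours for roles and a dashed line for equal levels. RETREG1, OPTN and WIPI1 lie far above the line, SQSTM1, CTSD and ATG12 far below it, and NPC2, LAMP1, CTSZ and ULK1 lie along the bottom.

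The pathways were also described by a wider list of 104 other lysosome and autophagy genes, without the sphingolipid hydrolases. In U251P, 0 of 92 tested were called in edgeR, 3 had an unadjusted p under 0.05, and the median log2 fold change was 0.01. In U251T, 13 of 56 tested were called, all higher, with a median of 0.23 beside 0.01 for all genes tested and a background of 17.1% called. The interaction was called for 8 of 97 tested, all with a higher effect in U251T, where 4.28% of all genes tested were called and 1.80% had a higher effect in U251T.

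Within the wider list, the autophagy machinery had 2 of 17 tested genes called in U251T (11.8%), below the 17.1% of all genes tested. The receptors and ATG8 proteins had 4 of 7 called (57.1%), and the genes grouped as control of TFEB 2 of 7 (28.6%). All of these calls were higher with carmofur. TP53INP1 and TP53INP2, stress proteins that bind ATG8 proteins, had 17.0, 7.17 and 7.04 CPM and 10.1, 9.06 and 15.8 CPM with vehicle. With carmofur they had 49.7, 49.3 and 47.5 CPM and 45.5, 36.7 and 63.3 CPM, and their log2 fold changes were 2.23 ± 0.34 SE and 2.12 ± 0.33 SE. These 2 genes and SORT1 (below) reached 9.77 CPM in all 3 libraries only with carmofur, so that a higher level there helped them into the test. The protease ATG4A, which trims ATG8 proteins, rose from 58.1, 38.1 and 52.8 CPM to 115.9, 107.3 and 126.5 CPM (1.26 ± 0.21 SE), and the fusion protein SNAP29 rose by 1.07 ± 0.20 SE. BNIP3L (NIX), a mitophagy receptor, had 37.2, 25.3 and 40.5 CPM with vehicle and 104.5, 81.2 and 118.6 CPM with carmofur (1.61 ± 0.24 SE), and the receptor TAX1BP1 and the ATG8 protein MAP1LC3A had 0.68 ± 0.13 SE and 1.76 ± 0.37 SE. Each of these 7 genes had its 3 carmofur values above its 3 vehicle values in U251T.

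Of the lysosomal genes of the wider list, the protease CTSV (cathepsin V), a close relative of CTSL, had 106.1, 59.3 and 151.3 CPM with vehicle and 467.7, 327.8 and 400.7 CPM with carmofur (log2 fold change 2.02 ± 0.24 SE). The sorting receptor SORT1 (sortilin) had 7.74, 3.40 and 10.6 CPM with vehicle and 30.0, 19.3 and 26.4 CPM with carmofur (2.03 ± 0.45 SE). The pump subunit ATP6V1D and the accessory protein ATP6AP2 rose by 0.72 ± 0.19 SE and 0.69 ± 0.17 SE, and LAMTOR1, which anchors the Ragulator complex to the lysosome, by 0.46 ± 0.15 SE. The interaction was called for TP53INP1, TP53INP2, ATG4A, SNAP29, BNIP3L, TAX1BP1, CTSV and SORT1, with differences of 0.73 (TAX1BP1) to 2.18 (TP53INP2) on the log2 scale, leaving out TP53INP1, which had 0.524 to 1.49 CPM in U251P, too low to test there, and gives no support to a difference between the lines. In U251P the log2 fold changes of these genes that were tested lay between -0.36 (BNIP3L) and 0.11 (SORT1). Vehicle replicate 2 held the lowest U251T value of each called gene of the wider list but LAMTOR1, SNAP29 and TP53INP1. How the calls of the wider list change without single libraries is not given here.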

How the data were processed

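The values are read counts per Ensembl gene as deposited by the authors, from a 3′ kit (QuantSeq). The submitters' processing notes name the build hg38, and whether counting used strand or molecular identifiers is not given in the sources used here. Of 60107 identifiers, 40995 had a symbol in the gene tables and 56531 a position in GENCODE release 29.

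Carmofur was compared with vehicle in each line (3 against 3 libraries) by the quasi-likelihood test of edgeR 4.0.16 in R 4.3.3, with TMM normalization, filterByExpr (10 counts at the median library size in 3 libraries) and Benjamini-Hochberg adjustment over all genes tested, with calls at an adjusted p under 0.05. The same test was used for the interaction over 12 libraries and for the lines in vehicle. The SE given with an edgeR estimate is the size of the log2 fold change divided by the square root of the F statistic of that test. CPM within a line used TMM factors; sums, markers and levels set across lines used total counts. Alternatives were DESeq2 1.42.0, upper-quartile scaling, other filters, the replicate number as a block, 1 fit of all libraries, and leaving out each library; thinning and protein-coding genes alone were added after seeing the data. The steps were tested on simulated data. Tables and figures were made in Python 3.11.15 with pandas 2.3.3 and matplotlib 3.10.9.

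The 46 genes and the lists were chosen with earlier results of these data known. Values per library were given for TFEB, TFE3 and MITF, called genes, the most abundant gene of each role, and in U251P the smallest unadjusted p, 3 genes per direction. Of the wider list, called genes were named, at most 3 per sub-list and direction. A few others were named after their values were seen. Replicates differed by more than sampling noise in all groups.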

Additional observations from a re-analysis of the deposited data

Results flagged for a closer look

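A test of the difference itself separated the lines for 4 of the 44 genes tested, all with a higher carmofur effect in U251T, where 4.28% of all genes tested were called and 1.80% were higher. On the log2 scale, the effect in U251T minus that in U251P was 2.45 for RETREG1, 1.38 for ATP6V1H, 1.40 for CTSL and 0.89 for GABARAP. The CTSL and GABARAP differences lost their calls without single libraries, as given with each gene. RETREG1 and ATP6V1H were called in all 19 alternatives.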

How the results depend on the processing

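In U251P, 0 of the listed genes were called under each alternative, with 0 to 19 calls over all genes (19 of 24349 without the filter), and the median stayed between -0.08 and 0.06, and between 0.37 and 0.69 in U251T. In U251T the 8 calls (17.1% of all genes) became 4 with DESeq2 (4.81%), which tested all 46 and 17843 genes in all, 4 with thinned libraries (15.4%) and 3 to 8 without 1 library at a time (11.1% to 15.6%); the cause was not tested. The 4 interaction calls (4.28% of all genes) became 7 with DESeq2 (2.77%), 7 with upper-quartile normalization (4.85%) and 2 to 5 without 1 library (2.69% to 5.27%); the cause was not tested. DESeq2 shifted the median of all genes in the interaction to 0.30, so its log2 values are relative to that. Between the lines in vehicle, 16 of 20 were called (9 higher), in place of 37 of 43 (12 higher), with at least 10 counts in every library. The share called over all genes tested was then 77.5% in place of 86.9%.

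With the replicate block, 14 genes were called in U251T, 0 in U251P, 6 for the interaction and 37 between the lines. Over all genes tested, the block also raised the share called, from 17.1% to 28.8% in U251T and from 4.28% to 6.06% for the interaction. Between the lines that share was 85.2% in place of 86.9%, and in U251P 1 of all 11426 genes was called. Libraries with the same number share only a number: deviations of same-numbered vehicle and carmofur libraries correlated at 0.21, -0.03 and 0.27 in U251P and at 0.08, 0.34 and 0.08 in U251T, and not every library correlated best with its own number.

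Of the named log2 fold changes, 536 alternative values kept direction and call, 47 lost a call, 7 gained one and 21 changed sign, none of them of a called value. With thinned libraries the signs changed for BECN1 (0.21), CTSD (0.12), CTSL (-0.0697) and GABARAPL2 (-0.37) in U251P and MITF (-0.11) in U251T, and with DESeq2 for UVRAG (-0.0623) in U251T; the cause was not tested. Without 1 library at a time, ranges that crossed 0 were -0.26 to 0.0632 for ATG7, -0.0897 to 0.0461 for BECN1, -0.11 to 0.0636 for CTSD, -0.0589 to 0.15 for GABARAPL2, -0.0986 to 0.0825 for TFE3 and -0.34 to 0.24 for TFEB in U251P, and -0.27 to 0.57 for UVRAG in U251T.

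In U251T 20 of the 46 genes were too low to test. With all libraries thinned to 383633 counts, 28 genes were tested in U251P and 19 in U251T; the cause was not tested.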
